A study of Homo sapiens with 6 samples.

Results

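Antisense long noncoding RNAs are transcribed from the strand opposite to another gene, whose symbol they carry before the suffix -AS. Of the 21850 genes counted in the human myeloma line MM.1S, 866 have a name that ends in -AS1, -AS2 or -AS3, and 206 of them reached a mean of at least 50 counts over the 6 libraries. These 206 RNAs, selected on their name and mean count and not on their change, 199 with the suffix -AS1 and 7 with -AS2, are described here together with the genes they are named for, which are called partners. Their mean counts ran from 50.2 to 7932 with a median of 147. Just outside the limit were ITFG2-AS1 (49.2), TTC23L-AS1 (49.3) and EPS15-AS1 (49.5), and just inside it were PAXBP1-AS1 (50.2), ESAM-AS1 (50.3) and TIAM1-AS1 (50.5). The control group, shNT, was MM.1S infected with a scramble shRNA and labelled WT. The other group, shPRKCN, was MM.1S infected with an shRNA against PRKCN and labelled PRKCN knockdown. RNA was collected at day 3 from 3 libraries per group, and both groups carried a lentiviral shRNA vector. The labels name 1 PRKCN hairpin and do not say whether the libraries came from separate cultures, so the p-values measure the spread between these libraries, which may be technical.

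Antisense RNAs and their partners can share a promoter region and fire in opposite directions, or the antisense RNA can start inside or beyond the partner and run across its exons. Some are known to act on the partner's transcription, splicing or RNA stability, while many have no known role. Many are capped and spliced but are degraded quickly in the nucleus, so their levels reflect both synthesis and decay.

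Library totals ran from 35625564 to 37730003 counts, and the 206 antisense RNAs took between 0.188% and 0.204% of the counts in a library. PRKCN is listed as PRKD3, the gene of protein kinase D3, and its mean count was 46052 in shNT and 19410 in shPRKCN, which is 41.0% of the shNT level (log2 fold change -1.29 ± 0.03 SE, edgeR adjusted p = 8.2e-43). Of 9 plasma cell markers, 8 were listed and present in every library, and IGLC2 was not listed. SDC1 lay between 234 and 282 FPKM, JCHAIN between 4097 and 4348, MZB1 between 494 and 612 and CD38 between 5.86 and 6.86. The ranges were wider for IRF4 (32.4 to 118 FPKM), XBP1 (193 to 478), TNFRSF17 (68.8 to 156) and PRDM1 (25.6 to 38.7). Of 14 markers of other cell types, 12 were listed and 7 had at most 10 counts in any library. Their summed level was 14.6 to 17.5 FPKM in shNT and 23.4 to 26.3 FPKM in shPRKCN, with CD3E the highest at up to 22.6 FPKM, and its part in the results was not tested.

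The genes were placed with GENCODE release 29 on GRCh38, the build of the deposited tables, and 201 of the 206 pairs could be placed. In 74 pairs the RNA and its partner lay head to head, on opposite strands with starts at most 1000 bases apart. In 122 pairs they overlapped on opposite strands with starts farther apart, and in 4 they lay on opposite strands without overlap. HILPDA-AS1 alone was on the same strand as its partner in this annotation, against its name. In 158 of the placed pairs, exon bases of the RNA and the partner overlapped. Whether reads were counted by strand is not given in the sources used here, so in these pairs a share of the counts of one gene may belong to the other, and the values of those pairs are uncertain to that extent.

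Start regions were read from RefSeq windows on GRCh38.p14 that run from 250 bases before to 50 bases after a gene's start. A window was found for 168 of the antisense RNAs and 178 of the partners, and in 57 pairs both starts lay within 300 bases of each other. Of these 57 pairs, 45 diverged and 12 had overlapping 5′ ends. A median of 25 CpG dinucleotides stood in the windows of the antisense RNAs and also of their partners, against 14 in all 27305 windows. The letters TATAAA, searched on both strands, occurred in 5.36% of the antisense windows, in 6.18% of the partner windows and in 12.0% of all windows. CCAAT occurred in 34.5% of the antisense windows, in 35.4% of the partner windows and in 35.7% of all windows. All windows include those of genes not expressed in these cells, while the antisense RNAs were selected on their counts. Windows of expressed genes alone were not compared, so these differences cannot be read as particular to antisense pairs.

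The windows of 4 pairs are shown because both starts are inside them and yet the antisense RNA and its partner changed unequally, as described below; they were chosen after the values had been seen. Each is written 5′ to 3′ on the strand of the antisense RNA, and the capitals mark the stretch between the start of the antisense RNA and that of the partner, both included. DNAJC9-AS1 lies at chr10:73247117-73247416 on the plus strand with 112 bases between the start positions, SCOC-AS1 at chr4:140373343-140373642 on the minus strand with 118, and TIAM1-AS1 at chr21:31558983-31559282 on the plus strand with 146. RAB4A-AS1 lies at chr1:229271105-229271404 on the minus strand with 43 bases between the starts, and there the first bases of the 2 genes overlap. The windows hold 35 CpG for DNAJC9-AS1, 22 for SCOC-AS1, 42 for TIAM1-AS1 and 44 for RAB4A-AS1.
DNAJC9-AS1: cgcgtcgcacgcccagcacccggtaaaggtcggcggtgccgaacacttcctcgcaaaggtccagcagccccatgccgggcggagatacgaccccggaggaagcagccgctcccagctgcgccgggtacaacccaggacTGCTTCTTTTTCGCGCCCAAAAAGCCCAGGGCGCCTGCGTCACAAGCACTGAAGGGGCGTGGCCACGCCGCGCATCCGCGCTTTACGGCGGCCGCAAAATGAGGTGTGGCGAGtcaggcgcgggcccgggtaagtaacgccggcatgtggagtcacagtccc
SCOC-AS1: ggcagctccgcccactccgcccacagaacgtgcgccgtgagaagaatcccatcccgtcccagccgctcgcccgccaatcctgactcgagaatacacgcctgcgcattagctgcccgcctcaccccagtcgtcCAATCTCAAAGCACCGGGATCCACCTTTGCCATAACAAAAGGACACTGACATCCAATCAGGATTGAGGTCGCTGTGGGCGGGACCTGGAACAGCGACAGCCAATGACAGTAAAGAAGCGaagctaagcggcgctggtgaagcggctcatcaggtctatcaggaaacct
TIAM1-AS1: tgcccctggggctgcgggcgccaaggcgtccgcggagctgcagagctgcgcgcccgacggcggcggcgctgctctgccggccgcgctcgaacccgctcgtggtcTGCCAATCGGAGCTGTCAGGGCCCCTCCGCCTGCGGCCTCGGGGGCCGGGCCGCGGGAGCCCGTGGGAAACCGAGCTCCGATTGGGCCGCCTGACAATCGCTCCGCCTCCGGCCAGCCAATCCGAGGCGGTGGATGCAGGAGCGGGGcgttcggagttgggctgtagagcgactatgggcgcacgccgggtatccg
RAB4A-AS1: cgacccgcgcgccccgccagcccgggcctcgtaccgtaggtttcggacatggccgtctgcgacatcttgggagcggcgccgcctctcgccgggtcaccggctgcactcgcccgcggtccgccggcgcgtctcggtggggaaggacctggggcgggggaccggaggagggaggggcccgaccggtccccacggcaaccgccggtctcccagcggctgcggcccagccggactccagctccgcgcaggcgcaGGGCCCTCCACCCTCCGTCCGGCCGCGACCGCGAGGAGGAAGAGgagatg

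Levels were compared between genes per length, in FPKM. In shNT the antisense RNAs ran from 0.0887 to 47.7 FPKM with a median of 1.97, and the median of the 180 partners that passed the filter on low counts was 7.96. Within a pair, the antisense RNA stood at a median of 27.4% of its partner's FPKM in shNT and 27.9% in shPRKCN. It exceeded the partner in 49 of these 180 pairs. The highest mean counts belonged to BCAN-AS1, OIP5-AS1, IFNG-AS1, FGD5-AS1 and AFAP1-AS1, which are named for their counts. For 4 of them the partner was close to silent in these cells: BCAN, a brain proteoglycan, had 8 to 34 counts, IFNG, the cytokine interferon-γ, 0 to 2, FGD5 0 to 4 and AFAP1 3 to 13. IFNG-AS1 was the highest per length, at 47.7 ± 2.9 FPKM in shNT and 61.3 ± 4.8 FPKM in shPRKCN (SD, n = 3).

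To ask how these RNAs behaved when PRKCN was knocked down, the counts of shPRKCN were compared with those of shNT. A call required edgeR's Benjamini-Hochberg adjusted p to be under 0.05, over 13971 genes, and the log2 fold change to exceed 0.58 in size. All 206 antisense RNAs passed the filter on low counts, and 26 of them were called higher (12.6%) and 15 lower (7.28%), while 165 were not called. Over all genes tested, the percentages were 6.15 higher and 10.6 lower. The antisense RNAs thus lay above the background for rises and below it for falls, and their median log2 fold change was 0.13 against 0.0012 over all genes. With limma on log2(FPKM + 1), the share of rises was not above the background, with 4 RNAs higher (1.94%, background 2.27%) and 5 lower (2.43%, background 4.66%). With log2(FPKM + 0.1), 24 were higher (11.7%, background 5.81%) and 10 lower (4.85%, background 9.04%). The estimate was positive in 133 and negative in 73 of them. In bulk RNA, fewer cells with a transcript and less of it per cell cannot be told apart.

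Without the fold limit, 64 antisense RNAs had an adjusted p under 0.05 and were higher (31.1%, background 26.5%), and 28 were lower (13.6%, background 27.8%). Among all genes above the same count limit these shares were 29.6% higher and 30.7% lower. The share of rises without the fold limit was thus close to theirs, although these genes were not matched to the antisense RNAs on abundance. The shPRKCN libraries were all above the shNT libraries, in CPM (counts scaled to library size), for 69 of the RNAs (33.5%, background 29%) and all below for 38 (18.4%, background 29.8%). The excess of rises was thus larger with the fold limit than without it, and the lack of falls was larger without it. Of the 206 RNAs, 189 had a mean of at least 50 counts in each group. Among these 189, 20 were called higher and 10 lower, beside 6.15% and 10.6% of all genes tested. The other 17 were under 50 in one group, and 11 of the calls were among them.

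**Figure D1:**
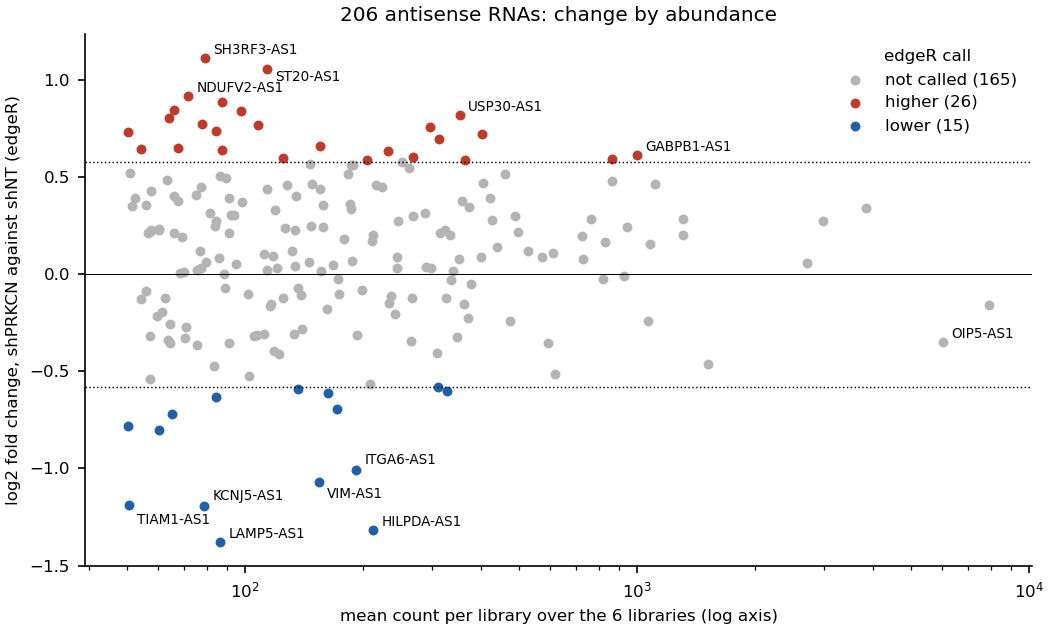
Each point is 1 of the 206 antisense RNAs, with its mean count per library on a log x axis and its edgeR log2 fold change, shPRKCN against shNT, on the y axis; dotted lines mark the fold limit of 0.58 in each direction. Red points are the 26 called higher and blue points the 15 called lower, and the called RNAs are spread over counts up to about that of GABPB1-AS1, while the most abundant RNAs to its right are not called.

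Other noncoding RNAs above the same count limit, not matched on abundance, were set beside them. Divergent transcripts, named with the suffix -DT, share a start region with a neighbour by definition, and 9 of 75 were called higher (12%) and 5 lower (6.67%), and the median estimate was 0.17 on the log2 scale. Of 98 intergenic RNAs with names starting in LINC, 7 were called higher (7.14%) and 8 lower (8.16%), with a median of 0.07. The 11659 genes of the whole table that reached the same count limit had 613 called higher (5.26%) and 1178 lower (10.1%). The share of rises among the antisense RNAs was thus close to that of the divergent transcripts, and the difference between these families was not tested. Among the 660 antisense RNAs under 50 counts, 174 passed the filter, with 19 called higher and 10 lower and a median of 0.18. Over all 380 tested antisense RNAs of any count, 45 were called higher (11.8%) and 25 lower (6.58%), beside 6.15% and 10.6% of all genes tested.

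**Figure D2:**
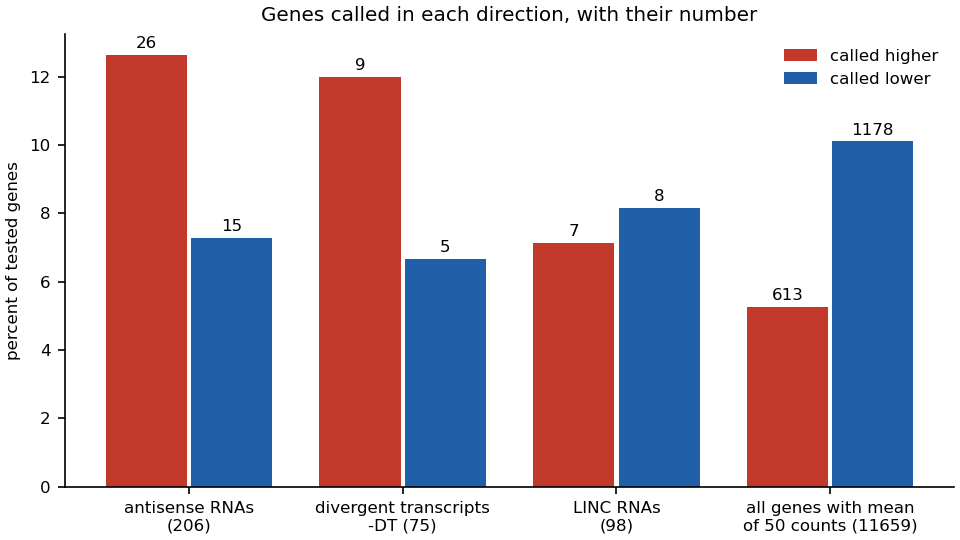
Bars give the percentage of tested genes called higher (red) or lower (blue) in shPRKCN, in each family above the limit of 50 counts, with the number called above each bar. For antisense RNAs and divergent transcripts the red bar is the taller one, and for all genes the blue bar is.

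The 8 largest rises without overlap between the groups ran from 0.81 to 1.11 on the log2 scale. Among them, SH3RF3-AS1, NDUFV2-AS1, ZSWIM8-AS1 and C21orf62-AS1 had a mean under 50 counts in shNT. They reached the count limit only through shPRKCN, the group where they were higher. SH3RF3-AS1 had 44, 57 and 46 counts in shNT against 104, 119 and 104 in shPRKCN (log2 fold change 1.11 ± 0.22 SE, edgeR adjusted p = 1.9e-05). Its partner SH3RF3, a ubiquitin ligase, lies head to head with it and had between 3166 and 3389 counts in shNT and between 4926 and 5016 in shPRKCN (0.57 ± 0.04, adjusted p = 1.0e-19), just under the fold limit. Both genes of this pair were therefore higher in every shPRKCN library, as were 29% of all genes tested. SH3RF3 passed the fold limit without shNT library 1 (0.588) or shNT library 2 (0.594).

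ST20-AS1 rose from 84, 65 and 68 counts to 159, 162 and 144 (1.06 ± 0.18, adjusted p = 1.3e-06), while ST20 had 56, 59 and 79 counts and then 89, 83 and 105 (0.48 ± 0.22, adjusted p = 0.064). TDRKH-AS1 rose from 75, 63 and 68 counts to 133, 123 and 124 (0.84 ± 0.20, adjusted p = 0.00019). Its partner TDRKH, a Tudor domain protein of the piRNA pathway, had a log2 fold change of 0.37 ± 0.05, under the fold limit. In both pairs the antisense RNA had the larger estimate, and the ratio to the partner was not called.

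Subunits of respiratory complex I gave their names to a pair of the rising RNAs. NDUFV2-AS1 had 43, 47 and 56 counts in shNT and 114, 94 and 75 in shPRKCN (0.92 ± 0.24, adjusted p = 0.00079), against 16324 to 18158 and 16054 to 16557 counts of NDUFV2 (-0.10 ± 0.03). NDUFB2-AS1 rose from 44, 73 and 64 counts to 92, 128 and 124 (0.89 ± 0.22, adjusted p = 0.00033), and NDUFB2 had 2529 to 3052 and 2801 to 2993 counts (0.03 ± 0.05). These RNAs were 0.41% and 0.607% of their partners per length in shNT, and they moved while the partners stayed far below the fold limit.

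ZSWIM8-AS1 rose from 35, 57 and 47 counts to 95, 79 and 82 (0.84 ± 0.25, adjusted p = 0.0028), beside ZSWIM8, a ubiquitin ligase receptor that acts in the decay of microRNAs, at 0.31 ± 0.05. C21orf62-AS1 rose from 37, 52 and 48 counts to 76, 88 and 82 (0.81 ± 0.25, adjusted p = 0.0043), and its partner was not listed. Of these 8, USP30-AS1 gained the most counts, from 229, 240 and 285 to 384, 454 and 527 (0.82 ± 0.11, adjusted p = 2.2e-09). All 8 of these RNAs were chosen for having no overlap between the groups, so that separation is not a further result.

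Of the other called rises, GABPB1-AS1 was the most abundant, with 854, 754 and 723 counts in shNT and 1204, 1222 and 1246 in shPRKCN (0.61 ± 0.07, adjusted p = 1.7e-12). Without shNT library 3 its log2 fold change was 0.55, under the fold limit. GABPB1, a subunit of the GA-binding protein transcription factor, lies head to head with it and had 1197 to 1277 and 1398 to 1419 counts (0.14 ± 0.05). The remaining 17 RNAs called higher had log2 fold changes from 0.59 to 0.77, and they include RAB4A-AS1, IQCH-AS1, CSRP1-AS1, TMEM147-AS1, ASB16-AS1, FBXL19-AS1 and RUNX3-AS1.

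**Figure D3:**
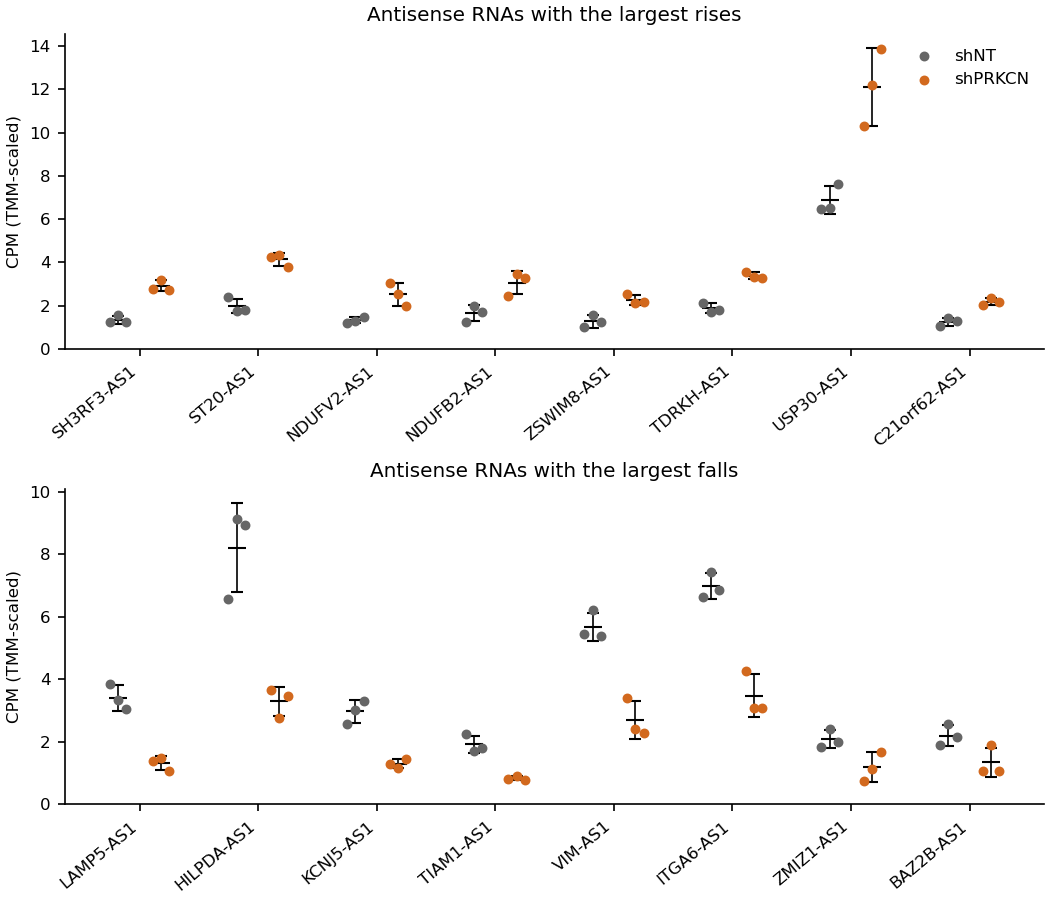
Points are TMM-scaled CPM in each of the 3 shNT (grey) and 3 shPRKCN (orange) libraries, with the mean as a bar and the SD as whiskers, for the 8 antisense RNAs with the largest rises (top) and the 8 with the largest falls (bottom) whose groups did not overlap. USP30-AS1 is the highest of the rising RNAs, and the ZMIZ1-AS1 and BAZ2B-AS1 groups are the closest to each other among the falling ones.

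The largest falls were larger in size than the largest rises. Among them, LAMP5-AS1, KCNJ5-AS1, TIAM1-AS1 and ZMIZ1-AS1 had a mean under 50 counts in shPRKCN. They reached the count limit only through shNT, the group where they were higher. LAMP5-AS1 had 136, 122 and 114 counts in shNT and 52, 55 and 40 in shPRKCN (-1.38 ± 0.22, adjusted p = 1.2e-07). LAMP5, a lysosome-associated membrane protein that lies head to head with it, had between 9175 and 9678 counts in shNT and between 2602 and 2695 in shPRKCN (-1.86 ± 0.04, adjusted p = 4.9e-49). HILPDA-AS1 had 232, 336 and 334 counts and then 137, 103 and 131 (-1.32 ± 0.14, adjusted p = 1.7e-12), beside HILPDA, a hypoxia-induced lipid droplet protein, at -1.84 ± 0.07. In these pairs both genes were called lower. The RNAs were chosen for having no overlap between the groups. Their partners had none either, and 29.8% of all genes tested were likewise lower in every shPRKCN library. HILPDA-AS1 lies on the strand of HILPDA in the annotation used, so even counting by strand would not separate reads of the exon bases they share.

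VIM-AS1 had 192, 228 and 201 counts in shNT and 127, 90 and 87 in shPRKCN (-1.07 ± 0.16, adjusted p = 5.7e-08). VIM, the intermediate filament protein vimentin, fell from between 12020 and 13165 counts to between 3716 and 3760 (-1.77 ± 0.04, adjusted p = 7.2e-49). The RNA fell less than its partner, and their ratio was called higher (0.69 ± 0.18, limma adjusted p = 0.0038).

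KCNJ5-AS1 fell from 91, 111 and 124 counts to 48, 43 and 55 (-1.19 ± 0.22, adjusted p = 5.9e-06), and KCNJ5, a potassium channel, had 0 to 6 counts in any library and was not tested. GENCODE types this RNA as protein coding. TIAM1-AS1 had 79, 63 and 67 counts in shNT and 30, 34 and 30 in shPRKCN (-1.19 ± 0.28, adjusted p = 0.00021). TIAM1, an exchange factor for the GTPase RAC1, had 1276 to 1380 and 1141 to 1196 counts (-0.21 ± 0.06), so that the ratio fell by 0.96 on the log2 scale (SE 0.27, limma adjusted p = 0.0075). The start regions of TIAM1-AS1 and TIAM1 stand in 1 of the printed windows.

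ITGA6-AS1 fell from 234, 273 and 257 counts to 159, 114 and 117 (-1.01 ± 0.14, adjusted p = 1.1e-08). ZMIZ1-AS1 had 65, 88 and 75 counts in shNT and 28, 42 and 64 in shPRKCN (-0.80 ± 0.26, adjusted p = 0.0077), and without shPRKCN library 1 the value was -0.56 with an adjusted p of 0.087. BAZ2B-AS1 had 67, 94 and 80 counts and then 40, 70 and 40 (-0.72 ± 0.25, adjusted p = 0.013), and its call was lost without shNT library 2 or without shPRKCN library 1 or 3. The calls of ZMIZ1-AS1 and BAZ2B-AS1 thus depended on single libraries, and the partners ZMIZ1 (-0.19 ± 0.04) and BAZ2B (-0.06 ± 0.05) were not called. The other 7 RNAs called lower were ESAM-AS1, MIF-AS1, POT1-AS1, H1-10-AS1, TMPO-AS1, DENND3-AS1 and RNF32-AS1, between -0.78 and -0.58. ESAM-AS1, with a mean count of 63 in shNT and 37.7 in shPRKCN, also reached the count limit only through shNT. Of all 41 calls, those of ESAM-AS1, POT1-AS1, SLFNL1-AS1 and RUNX3-AS1 had groups that overlapped in CPM.

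The antisense RNAs were next set beside their partners, to see whether both genes of a pair moved together. Of the 206 partners, 200 were listed under their symbol and 180 passed the filter on low counts. C21orf62, ENTPD3, NPSR1, NUTM2B, SAPCD1 and TRG were not listed. Among the 180 partners, 9 were called higher (5%) and 22 lower (12.2%), near the 6.15% and 10.6% of all genes, and the median log2 fold change was -0.03 against 0.14 for their antisense RNAs. The RNA had the higher estimate in 118 pairs and the lower one in 62. Estimates had the same sign in 117 of the 180 pairs (65%), and across pairs Pearson's r was 0.43 and Spearman's rho 0.39, given as a description because the pairs share libraries and, in many cases, exon bases.

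Both genes were called in 8 of the 180 pairs, and 7 of these had the same direction. Taken singly, 12.6% of the antisense RNAs were called higher and 7.28% lower, and 5% and 12.2% of the partners. Pairs with both genes called were not counted over all named pairs, so no background stands beside these counts. The pair called higher was ASB16-AS1 and ASB16. ASB16-AS1 had 602, 681 and 751 counts in shNT and 995, 1086 and 1070 in shPRKCN (0.59 ± 0.07), and ASB16 had 154 to 168 and 307 to 352 (0.99 ± 0.12). The pairs called lower were those of LAMP5, HILPDA, VIM, H1-10, TMPO and DENND3. H1-10, a linker histone, was at -0.84 ± 0.04 with H1-10-AS1 at -0.61 ± 0.16, and DENND3 was at -0.66 ± 0.04 with DENND3-AS1 at -0.59 ± 0.17. Exon bases overlapped in these pairs except that of DENND3, and the part of shared reads in the common direction was not tested. Without the fold limit, both genes had an adjusted p under 0.05 in 51 pairs, 39 with the same sign and 12 with opposite signs. Over all 180 pairs, whatever their p, 65% had the same sign.

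USP30-AS1 and USP30 were the pair called in opposite directions. USP30, a mitochondrial deubiquitinase that restrains mitophagy, had 376, 459 and 395 counts in shNT and 231, 222 and 260 in shPRKCN (-0.83 ± 0.11, edgeR adjusted p = 1.9e-09). Over the same libraries USP30-AS1 rose by the values given above. In CPM the antisense RNA was below its partner in every shNT library and above it in every shPRKCN library. CPM is not scaled to gene length, so this crossing does not rank the levels of the RNA and its partner. The RNA lies at chr12:109052350-109053952 on the minus strand, inside the span of USP30, with 233 exon bases in common and 30863 bases between the starts. Its log2 ratio to USP30 rose by 1.63 ± 0.13 (limma adjusted p = 3.1e-12), the largest shift of any antisense RNA here.

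The ratio test compares the change of an antisense RNA with that of its partner directly. It was run with limma on the log2 ratio of their CPM over 500 named pairs of the whole table, and called at an adjusted p under 0.05 and a change beyond 0.58. Among the 180 antisense pairs, 27 ratios were called higher (15%) and 8 lower (4.44%), where the percentages over all 500 pairs were 14 and 3.8. The antisense pairs were thus close to the background of named pairs, of which they are a part. Of the 35 calls, 11 had a call of the antisense RNA alone, 11 of the partner alone, 2 of both and 11 of neither.

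Other large shifts towards the antisense RNA came with a falling partner. RORA-AS1 had 31, 62 and 63 counts in shNT and 90, 51 and 83 in shPRKCN, which overlapped, while RORA, a nuclear receptor, fell from 1360, 1450 and 1192 counts to 675, 546 and 682 (-1.11 ± 0.07). The ratio rose by 1.62 ± 0.27 (limma adjusted p = 2.0e-05).

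POC1B-AS1, with 75, 36 and 62 counts in shNT and 68, 67 and 97 in shPRKCN, was not called, and its head to head partner POC1B, a centriole protein, fell from between 1801 and 1955 counts to between 1001 and 1023 (-0.95 ± 0.05).

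CCDC18-AS1 had 450, 474 and 438 counts and then 579, 491 and 557 (0.22 ± 0.09), beside a fall of CCDC18 from 266, 288 and 357 counts to 184, 157 and 153 (-0.92 ± 0.13). TMEM44-AS1 had 143, 129 and 155 counts in shNT and 162, 127 and 118 in shPRKCN, beside TMEM44 with 67, 49 and 67 and then 40, 20 and 26 (-1.13 ± 0.31). The ratio rose by 1.37 ± 0.26 for POC1B-AS1, 1.13 ± 0.15 for CCDC18-AS1 and 1.04 ± 0.29 for TMEM44-AS1. In these 3 pairs the antisense RNA was not called and the partner was called lower.

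The largest shifts towards the partner were those of ITGA6 and TTN. ITGA6, the laminin-binding integrin α6, had 450, 498 and 509 counts in shNT and 688, 697 and 691 in shPRKCN (0.47 ± 0.08, edgeR adjusted p = 7.6e-07), while ITGA6-AS1 fell, and the ratio fell by 1.49 on the log2 scale (SE 0.16, limma adjusted p = 3.2e-09). TTN, the giant sarcomere protein titin, had 710, 715 and 691 counts and then 1586, 1672 and 1754 (1.20 ± 0.06). TTN-AS1 had 230, 241 and 228 counts in shNT and 220, 298 and 245 in shPRKCN (0.09 ± 0.13), and its ratio fell by 1.13 (SE 0.14, limma adjusted p = 7.5e-08). TTN-AS1 covers 253975 bases of TTN and shares 11381 exon bases with it, more than any other pair named here, and its groups overlapped while those of TTN did not. Of all genes tested, 29% were likewise higher in every shPRKCN library.

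**Figure D4:**
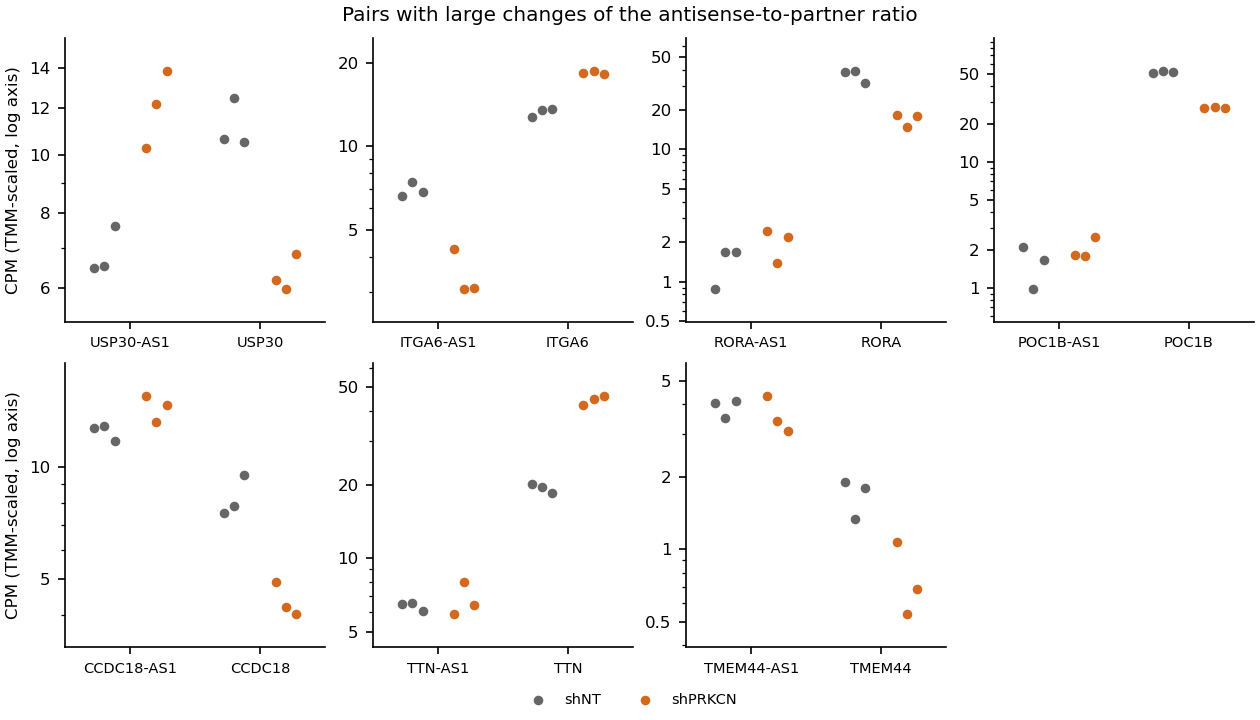
CPM on a log axis in each of the 3 shNT (grey) and 3 shPRKCN (orange) libraries for 7 of the pairs with the largest change of the ratio, with the antisense RNA on the left and its partner on the right of each panel. USP30-AS1 rises while USP30 falls, ITGA6-AS1 falls while ITGA6 is higher, and in the panels of RORA, POC1B, CCDC18, TTN and TMEM44 the partner moves more than the antisense RNA.

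The pairs whose start windows are printed above moved unequally as well. DNAJC9-AS1 had 60, 37 and 67 counts in shNT and 63, 64 and 71 in shPRKCN, while DNAJC9, a histone co-chaperone, fell from between 2446 and 2794 counts to between 1594 and 1703 (-0.69 ± 0.05), and the ratio rose by 0.96 ± 0.25 (limma adjusted p = 0.0047). SCOC-AS1 had 76, 55 and 70 counts and then 55, 52 and 35 (-0.54 ± 0.26, not called), beside SCOC with 1091 to 1204 and 418 to 503 counts (-1.40 ± 0.07) and a ratio change of 0.85 ± 0.27 (limma adjusted p = 0.017). RAB4A-AS1 rose from 68, 70 and 48 counts to 117, 88 and 114 (0.74 ± 0.22), beside RAB4A, a GTPase of endosome recycling, with 1895 to 2113 and 1921 to 2042 counts (-0.06 ± 0.05). They were picked for this inequality, which is given as a description. GENCODE places the starts of SCOC-AS1 and SCOC 116095 bases apart, so the distance depends on the annotation.

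The position of the genes was compared with their changes. Among the 74 head to head pairs, 13 antisense RNAs were called higher (17.6%) and 5 lower (6.76%), beside 12.6% and 7.28% of all 206 antisense RNAs and 6.15% and 10.6% of all genes, and the median estimate was 0.22 against -0.06 for the partners, and the ratio was called higher in 12 (16.2%) and lower in 1 (1.35%), beside 15% and 4.44% of all antisense pairs. Among the 98 tested pairs that overlap with distant starts, 10 RNAs were called higher (10.2%) and 7 lower (7.14%), with medians of 0.09 and 0.02, and the ratio was called higher in 14 (14.3%) and lower in 7 (7.14%). Signs were the same in 60.8% of the head to head pairs (r = 0.49) and in 66.3% of the overlapping pairs (r = 0.34). Of the pairs with exon bases in common, 67.1% of 143 had the same sign (r = 0.45), and of those without, 55.9% of 34 (r = 0.40). These differences between arrangements were not tested.

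Lists of partners by function were also counted. From 13 genes of interferon response and antigen presentation, 2 antisense RNAs reached the count limit, and edgeR and DESeq2 each called 0 of them, with 1 at an unadjusted p under 0.05. IRF1-AS1 had 951, 817 and 987 counts in shNT and 939, 974 and 903 in shPRKCN (-0.01 ± 0.07, with a sign that turned under upper-quartile scaling), while IRF1, an interferon-response transcription factor, was at 0.45 ± 0.04 with 3274 to 3698 and 4825 to 4980 counts. PSMB8-AS1 had 653, 639 and 678 counts and then 553, 506 and 523 (-0.36 ± 0.08, adjusted p = 0.00013), under the fold limit, and PSMB8, an immunoproteasome subunit, was at -0.03 ± 0.04.

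From 14 genes of cell cycle and DNA repair, 4 antisense RNAs were present and 1 was called lower. The share called lower was 7.28% of all 206 antisense RNAs and 10.6% of all genes tested, and 4 RNAs are too few to compare with it. This was TMPO-AS1, which fell from 378, 375 and 421 counts to 222, 291 and 282 (-0.60 ± 0.11, adjusted p = 4.0e-06), together with its head to head partner TMPO, a lamina-associated polypeptide, at -0.74 ± 0.03. The TMPO-AS1 value was -0.56 without shNT library 3 and -0.49 without shPRKCN library 1, both under the fold limit. DDX11-AS1 (0.23 ± 0.25) and MCM3AP-AS1 (0.08 ± 0.10) had no adjusted p under 0.05.

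From 15 genes of B cells, myeloma and signalling, 4 antisense RNAs were present, and edgeR and DESeq2 each called 0 of them, with 1 at an unadjusted p under 0.05. PRKCQ-AS1, named for protein kinase C θ, had 199, 185 and 244 counts in shNT and 323, 322 and 296 in shPRKCN (0.55 ± 0.12, edgeR adjusted p = 0.0001), under the fold limit but past it without shNT library 3 (0.65) or shPRKCN library 3 (0.60), and PRKCQ was at -0.09 ± 0.12. Its ratio rose by 0.65 ± 0.15 (limma adjusted p = 0.00096). The others, CD27-AS1 (-0.15 ± 0.10), MAP3K14-AS1 (0.23 ± 0.17) and ZEB1-AS1 (0.09 ± 0.10), had overlapping groups. None of the 8 listed partners of hypoxia and stress had an antisense RNA above the count limit.

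Of 10 widely studied antisense RNAs, 9 were present and GABPB1-AS1 was called higher. The share called higher was 12.6% of all 206 antisense RNAs and 6.15% of all genes tested, and 9 RNAs are too few to compare with it. OIP5-AS1, which binds the RNA-binding protein HuR, had 6431, 6871 and 6779 counts in shNT and 5450, 5185 and 5575 in shPRKCN (-0.35 ± 0.04, edgeR adjusted p = 1.2e-12), and OIP5, a centromere protein, was at -0.47 ± 0.12. THAP9-AS1 had an adjusted p of 0.00068 at -0.24 ± 0.06 and ARRDC1-AS1 one of 0.025 at 0.20 ± 0.08, both under the fold limit. EPB41L4A-AS1 (0.11 ± 0.08), MAPKAPK5-AS1 (0.02 ± 0.11), PSMA3-AS1 (-0.02 ± 0.07), SBF2-AS1 (-0.18 ± 0.16) and TTN-AS1 had overlapping groups and no adjusted p under 0.05.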

How the data were processed

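MM.1S cells infected with an shRNA against PRKCN (shPRKCN, 3 libraries) or a scramble shRNA (shNT, 3 libraries) were profiled by RNA-seq at day 3. The authors deposited raw counts and FPKM values of 21850 genes for every library. The submitters' processing notes name FastQC, HISAT2, StringTie and GRCh38.p14; versions, annotation and the strandedness of counting are not given in the sources used here. Groups and replicate numbers follow the sample labels.

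TMM scaling and the quasi-likelihood test of edgeR 4.0.16 in R 4.3.3 were applied to the 13971 genes that filterByExpr kept. P-values were adjusted by Benjamini-Hochberg, and calls needed an adjusted p under 0.05 with a log2 change larger than 0.58 in size. Errors of log2 values are standard errors of the fit. Pair ratios were tested with limma 3.58.1 on log2(antisense CPM / partner CPM) with 0.5 counts added, over 500 pairs of genes with an -AS, -DT, -IT or -OT name and their partners. Partners were matched by the symbol before the suffix. FPKM were used for levels between genes. Positions come from GENCODE release 29 (GRCh38), and start windows from RefSeq (GRCh38.p14). The steps were run on simulated counts with the same dispersion for all genes and planted changes beyond the fold limit. Changes near the limit and reads shared within a pair were not simulated, so the run does not cover them.

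Alternatives were DESeq2 1.42.0, other scalings, filters, count and fold limits, limma on log2(FPKM + 1) and log2(FPKM + 0.1), the replicate number as a block, and each library left out. Named with values were the 8 largest called changes in each direction without overlap, the 8 largest called ratio changes, pairs called in opposite directions, and the RNAs of the partner lists, except 1 RNA that is not reported here. The RNAs, lists and named genes were chosen with earlier results of these data known.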

Additional observations from a re-analysis of the deposited data

How the results depend on the processing

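A median of 147 counts per library left many antisense RNAs where counting error is large. Of the 206 RNAs, edgeR called 26 higher and 15 lower, with 8 pairs called in both genes and 35 ratios. DESeq2, other scalings and other filters kept these counts within 1.5 times. Limma on log2(FPKM + 1), which understates changes of low genes, gave 4 higher, 5 lower and 3 pairs called in both genes, where it called 317 genes higher (2.27%) and 651 lower (4.66%) in the whole table, so the excess of rises over the background was not present in this fit. It lost the calls of 15 named genes, with the same signs. Without a fold limit the numbers were 64 higher (31.1%, background 26.5%), 28 lower (13.6%, background 27.8%) and 51 pairs. With a mean of at least 100 counts, which leaves fewer RNAs, they were 14 higher, 8 lower and 20 ratios. These counts come from a smaller set, and their share was not compared with the background. Among the 43 placed pairs without exon bases in common, a choice added after the data were seen, the numbers were 9 higher, 5 lower, 6 ratios and 1 pair. In the 34 of them with a tested partner, 7 RNAs were called higher (20.6%) and 4 lower (11.8%), beside 6.15% and 10.6% of all genes. Leaving out 1 library gave 24 to 26 higher, 10 to 16 lower, 29 to 35 ratios and 6 to 10 pairs, and the lowest numbers of lower calls (10) and of pairs (6) came without shPRKCN library 2.

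The replicate numbers did not pair the libraries, since the correlations of same-numbered deviations were -0.04, -0.017 and 0.0018. With the replicate number as a block, 26 RNAs were called higher, 14 lower, 7 pairs in both genes and 37 ratios.

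Among the named genes, signs turned for 8, none of them called. IRF1-AS1 was 0.000377 with upper-quartile scaling, 0.016 in both FPKM fits and -0.084 to 0.043 with a library left out. With a library left out, MAPKAPK5-AS1 ran from -0.028 to 0.091, PSMA3-AS1 from -0.077 to 0.035, PSMA3 from -0.015 to 0.048, EPB41L4A from -0.015 to 0.20, NDUFB2 from -0.018 to 0.076, SBF2-AS1 from -0.29 to 0.013 and TTN-AS1 from -0.048 to 0.18. Calls gained include PRKCQ-AS1 and SH3RF3, each with a library left out as given above, SH3RF3 in limma on log2(FPKM + 0.1) (0.582), RORA-AS1 without shPRKCN library 2 (0.69) and ST20 without shNT library 3 (0.62). Causes were not tested.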

Other observations

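Genes of nuclear and cytoplasmic RNA decay were counted beside the antisense RNAs, many of which are short-lived. Of 40 genes of the exosome, its cofactors, the Integrator complex and other RNA-processing enzymes, all passed the filter, and edgeR and DESeq2 each called 0 higher and 1 lower. At an adjusted p alone, by edgeR with Benjamini-Hochberg adjustment, 13 were higher (32.5%) and 12 lower (30%), near the 26.5% and 27.8% of all genes (13 and 13 genes at an unadjusted p under 0.05), and the median log2 fold change was -0.04. DCP2, the mRNA decapping enzyme, was the one called, at -0.62 ± 0.05 (SE). DIS3, a catalytic exosome subunit, was at -0.29 ± 0.06, and DIS3L, its cytoplasmic relative, at 0.47 ± 0.05. INTS2 of the Integrator was at -0.55 ± 0.06, EXOSC8 at -0.45 ± 0.08 and DICER1, which cuts microRNA precursors, at 0.46 ± 0.05. EXOSC10 (-0.08 ± 0.04), MTREX (-0.07 ± 0.04) and ZFC3H1 (0.01 ± 0.04) had no adjusted p under 0.05. The part of these genes in the levels of the antisense RNAs was not tested.

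The letters TTTGAA occurred in 7.14% of the antisense start windows, in 10.1% of the partner windows and in 15.4% of all windows, searched on both strands. Here too, all windows include those of genes not expressed in these cells.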
